A study of Mus musculus with 5 samples.

Results

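The cells described here are OT-I CD8+ T cells at 24 h of stimulation in which the deposited value of Gzmb, the gene of granzyme B, was 0. They were 520 of 3809 cells at 24 h and of 13629 cells in the whole series, chosen by that value alone and set against the 3289 cells of the same libraries with Gzmb above 0. With dendritic cells (DCs) and myeloid-derived suppressor cells (MDSCs) in the culture, 86 of 2247 cells were at Gzmb 0, against 434 of 1562 cells with DCs alone. Since Gzmb defined both classes, its own values are given as a description.

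OT-I T cells carry a transgenic T cell receptor that recognises the ovalbumin peptide SIINFEKL on mouse class I MHC. They came from spleen and lymph nodes of mice of the strain C57BL/6-Tg(TcraTcrb)1100Mjb/J and were sorted by flow cytometry for droplet sequencing. The first 24 h culture held peptide-pulsed DCs together with MDSCs, a myeloid population that restrains T cells in tumours and chronic inflammation, and the other held peptide-pulsed DCs without MDSCs. Both 24 h cultures share the strain, the receptor transgene, the peptide-pulsed DCs and the medium, and each is 1 library, so an effect of MDSCs cannot be told apart from any other difference between 2 cultures. Libraries from 0 h, before co-culture, and from 72 h with and without MDSCs complete the 5 groups. No test was possible between single libraries, so a gene was called higher or lower where levels differed at least 1.5-fold at 50 CPM or more in either class, and gene lists were read at 10 CPM or more. Levels are given as CPM: the adjusted counts of a gene, summed over the cells of a class, in 1000000 of all adjusted counts of that class.

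Granzyme B is a serine protease stored in cytotoxic granules and delivered through perforin into target cells, where it starts apoptosis. Resting CD8+ T cells make little of it, and its transcription follows receptor stimulation together with cytokine signals, among them interleukin 2 (IL-2) acting through its receptor and the factor STAT5. IL-2 is itself made by recently stimulated T cells and can act on the cell that secretes it or on neighbours, and interferons form a further signal received during priming.

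Promoter sequences of 5 genes are shown because the results turn on them: Gzmb defines the cells, Il2 had the largest excess among the genes higher at Gzmb 0 in both libraries, and Cish, Socs1 and Igtp, targets of cytokine signals, were lower there in both libraries. The windows run from 250 bases before to 50 bases after the annotated start, 5′ to 3′ on the gene's strand, from RefSeq on GRCm38.p6 (the assembly of mm10). Capitals mark TTCNNNGAA, the spaced palindrome that STAT factors are known to bind, and GAAANNGAAA, the core of interferon-stimulated response elements. Both were searched on both strands, and matches that overlap are joined into 1 capital run. The Gzmb window is chr14:56262285-56262584 (minus strand), the Il2 window chr3:37125905-37126204 (minus), the Cish window chr9:107296409-107296708 (plus), the Socs1 window chr16:10785487-10785786 (minus) and the Igtp window chr11:58199306-58199605 (plus).
Gzmb: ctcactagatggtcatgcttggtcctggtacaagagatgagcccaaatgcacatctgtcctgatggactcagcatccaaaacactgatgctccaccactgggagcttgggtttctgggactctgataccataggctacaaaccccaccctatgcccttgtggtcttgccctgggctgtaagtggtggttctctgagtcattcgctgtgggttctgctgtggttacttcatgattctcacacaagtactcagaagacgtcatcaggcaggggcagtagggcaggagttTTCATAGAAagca
Il2: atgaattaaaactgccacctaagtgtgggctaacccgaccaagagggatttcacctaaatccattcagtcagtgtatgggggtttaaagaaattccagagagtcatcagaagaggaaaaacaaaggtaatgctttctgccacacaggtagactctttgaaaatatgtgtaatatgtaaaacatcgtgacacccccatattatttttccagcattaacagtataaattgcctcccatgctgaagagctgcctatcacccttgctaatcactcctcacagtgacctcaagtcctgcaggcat
Cish: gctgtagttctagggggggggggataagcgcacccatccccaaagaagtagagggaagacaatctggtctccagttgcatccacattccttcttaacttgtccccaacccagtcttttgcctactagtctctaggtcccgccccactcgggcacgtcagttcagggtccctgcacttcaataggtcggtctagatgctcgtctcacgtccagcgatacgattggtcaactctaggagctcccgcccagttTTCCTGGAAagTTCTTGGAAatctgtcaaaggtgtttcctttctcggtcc
Socs1: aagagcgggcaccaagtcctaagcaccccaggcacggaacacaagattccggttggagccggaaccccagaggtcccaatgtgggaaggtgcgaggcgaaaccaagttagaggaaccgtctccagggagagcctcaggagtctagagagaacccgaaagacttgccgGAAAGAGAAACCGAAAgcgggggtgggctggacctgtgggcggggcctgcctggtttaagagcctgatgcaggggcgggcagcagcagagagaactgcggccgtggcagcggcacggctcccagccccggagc
Igtp: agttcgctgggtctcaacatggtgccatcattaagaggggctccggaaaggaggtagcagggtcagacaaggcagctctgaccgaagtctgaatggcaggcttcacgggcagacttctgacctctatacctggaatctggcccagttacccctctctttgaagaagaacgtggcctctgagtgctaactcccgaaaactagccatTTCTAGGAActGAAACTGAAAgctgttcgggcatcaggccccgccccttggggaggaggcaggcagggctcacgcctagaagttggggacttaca
The Il2 window held neither word, Cish held 2 copies of TTCNNNGAA, Socs1 held 2 overlapping copies of GAAANNGAAA, and Igtp held 1 of each, side by side. The Gzmb match lies past the RefSeq start used for its window, and both Cish matches lie at or past theirs. The annotations differ for both genes. In GENCODE on the same build, the protein-coding Gzmb gene (ENSMUSG00000015437.5) spans 56258838 to 56262260 on chromosome 14, so that the whole Gzmb window lies before that start. Cish (ENSMUSG00000032578.7) spans 107296026 to 107302784 on chromosome 9, so that the whole Cish window lies past that start. Il2 (ENSMUSG00000027720.7) spans 37120523 to 37125959 on chromosome 3. Of the 29 genes lower in both libraries, 19 were matched to a promoter entry and 6 of these (31.6%) held TTCNNNGAA (Cish, Igtp, Irf8, Lta, Ltb and Tnfrsf9), against 9.55% of the 27025 genes with an entry and 8.3% of all 32851 windows. Of the 13 genes higher in both, 10 were matched and 1 held it (Bach2). GAAANNGAAA was found in 2 of the 19 (Igtp and Socs1) and in 0 of the 10, against 3.99% of genes and 3.44% of windows. A match describes letters in a window and says nothing of binding.

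Cells at Gzmb 0 were rarer in the culture with MDSCs. They made up 3.83% of its cells (exact 95% interval 3.07 to 4.71, counting error only) and 27.8% of the cells with DCs alone (25.6 to 30.1). The cells just outside the rule, at an adjusted count of 1, numbered 101 with MDSCs and 134 with DCs alone, and those at 2 numbered 120 and 75. Counting cells at 1 or less as negative gave 8.32% with MDSCs and 36.4% with DCs alone. Among cells above 0, the median adjusted Gzmb count was 25 with MDSCs and 15 with DCs alone. All 86 and all 434 cells were also at 0 in the separately adjusted table of all time points, where 7.79% and 35.7% of the cells of these libraries were at Gzmb 0. In that table the shares at 72 h were 0.0405% with MDSCs (2 of 4942 cells) and 0.519% with DCs alone (10 of 1926). At 0 h it listed 8 of 2952 cells (0.271%) at Gzmb 0, but the 0 h values differ in kind from those of the other libraries and this share is not compared.

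**Figure D1:**
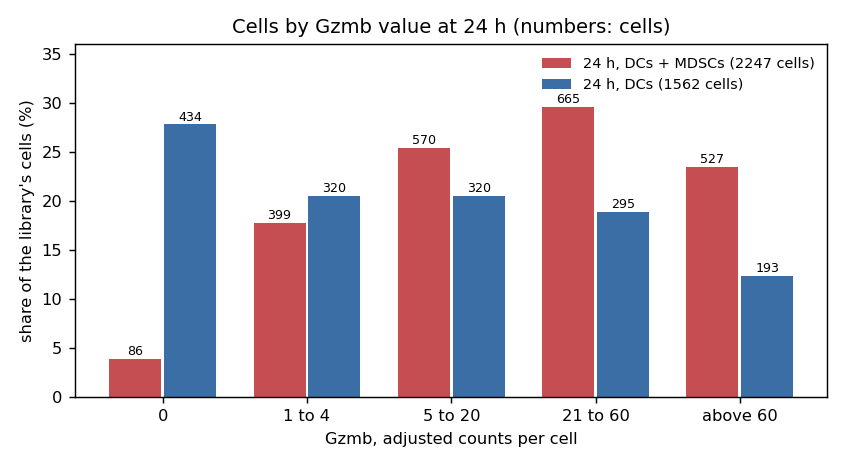
Share of each 24 h library's cells (vertical axis, percent) in ranges of the adjusted Gzmb count (horizontal axis), red for DCs with MDSCs and blue for DCs alone, with the number of cells on each bar. Cells at 0 are the smallest range with MDSCs (86 cells) and the largest with DCs alone (434 cells).

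Cells at Gzmb 0 did not have fewer detected genes than the others. The median number of genes above 0 was 3990.5 in cells at Gzmb 0 against 3614 in the others with MDSCs, and 3843.5 against 3697.5 with DCs alone. The lowest tertile (1 of 3 near equal classes) of 24 h cells by genes above 0 had the smallest share at Gzmb 0, 0.775% with MDSCs and 16.9% with DCs alone, and the highest tertile had 8.06% and 32.1%. The order of the libraries was the same within each tertile. The median cell cycle sum, the summed S, G2 and M phase genes of a cell, was 218 at Gzmb 0 against 194 above 0 with MDSCs and 149 against 143 with DCs alone. The adjusted total per cell was nearly constant (16999 to 20023, coefficient of variation 3.28%), so the number of molecules behind a zero is unknown. In total, 7 cell barcodes occurred in both 24 h libraries.

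The cells carried the transcripts of CD8+ T cells. Cd8a, the CD8 alpha chain, was above 0 in 96.5% of cells at Gzmb 0 with MDSCs and in 94.5% with DCs alone, and Cd3e, a chain of the receptor complex, in 84.9% and 92.4%. Against cells above 0, the Cd8a log2 ratio was -0.43 with MDSCs and -0.59 with DCs alone. That of Cd8b1, the CD8 beta chain, was -0.60 with DCs alone. Of 16 T cell receptor and CD8 genes, 2 were lower with MDSCs (median -0.17) and 6 with DCs alone (median -0.25), and 0 were higher. The shares of all genes lower at 10 CPM or more were 1.81% and 2.49%. Granulocyte markers, of which 6 of 16 were in the table, summed to 6.03 CPM in cells at Gzmb 0 against 3.91 in cells above 0 with MDSCs, and to 0.236 against 0.185 with DCs alone. S100a8, S100a9, Lcn2, Wfdc21 and Chil3 were at 0 in both classes with DCs alone. Monocyte and macrophage markers (9 of 18) summed to 14.5 against 28.7 CPM with MDSCs and 15.4 against 31.8 with DCs alone, DC markers (12 of 17) to 171 against 196 and 132 against 170, and B cell markers (2 of 11) to 3.62 against 3.94 and 2.48 against 4.86. For markers of NK and innate-like cells (9 of 16) the sums were 434 against 448 and 665 against 557 CPM, for CD4 and regulatory T cells (5 of 7) 41.0 against 37.6 and 63.1 against 56.6, and for erythroid cells and platelets (2 of 10) the sums were 1.21 against 1.70 and 3.54 against 2.92. In the NK list, Eomes, Gzma and Il2rb, which activated CD8+ T cells also express, were lower in both libraries, and the sum is mostly Xcl1 (374 against 298 CPM with MDSCs and 605 against 377 with DCs alone). The part of these markers in the results was not tested.

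Within the libraries, cells at Gzmb 0 had more Il2 transcript than cells above 0 and less of several genes that respond to IL-2 or interferon. With MDSCs, 63 of 2757 genes differed at least 1.5-fold (2.29%), 29 higher (1.05%) and 34 lower (1.23%) in cells at Gzmb 0. With DCs alone, 106 of 2579 genes did (4.11%), 39 higher (1.51%) and 67 lower (2.6%). The same 13 genes were higher in both libraries, which is 44.8% of the 29 and 33.3% of the 39, and the same 29 genes were lower in both, 85.3% of the 34 and 43.3% of the 67. No gene was past 1.5-fold in opposite directions. Leaving out cells with 2 or more markers of another cell type removed 58.1% of the cells at Gzmb 0 and 51.1% of those above 0 with MDSCs. With DCs alone it removed 46.1% and 41.8%. Under this setting 9 of the 13 and 28 of the 29 stayed past 1.5-fold in both.

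Il2 led the genes that were higher. Its level in cells at Gzmb 0 was 1016 CPM against 307 CPM in cells above 0 with MDSCs (log2 ratio 1.72), and 1566 against 318 CPM with DCs alone (2.30). It was detected in 75.6% of cells at Gzmb 0 against 48.3% of the others with MDSCs, and in 76.3% against 48.2% with DCs alone. The shares thus lay close together in the 2 libraries within a class. The level rested on few cells: the 5 highest of the 86 cells held 40.5% of the Il2 counts of their class with MDSCs, and the 5 highest of the 434 cells held 17.8% with DCs alone. With each cell weighted equally, the Il2 log2 ratio was 2.09 with MDSCs and 2.48 with DCs alone.

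The other 12 genes higher in both libraries encode proteins of different kinds, among them surface proteins and transcriptional regulators. Cd200, the ligand of an inhibitory receptor on myeloid cells, was at 169 against 89.9 CPM with MDSCs and 168 against 87.9 CPM with DCs alone. Tnfrsf4, the costimulatory receptor OX40, was at 183 against 106 and 225 against 131 CPM, and Rel, an NF-κB subunit that binds the Il2 promoter, at 58.5 against 37.4 and 66.5 against 38.8 CPM. Bhlhe40, a transcription factor of cytokine-producing T cells, stood at 94.0 against 53.6 CPM with MDSCs and 95.3 against 49.1 with DCs alone. Id3, an inhibitor of E proteins, stood at 165 against 104 and 157 against 86.0 CPM, and Bach2, a repressor that restrains effector differentiation, at 58.5 against 38.8 and 75.1 against 41.6. Dapl1, a gene of naive and memory-precursor T cells, had log2 ratios of 1.11 with MDSCs and 0.89 with DCs alone, and Rgs1, a brake on chemokine receptor signalling, 0.65 and 1.31. Marcksl1, Eea1 and Mfhas1 were also higher, at log2 ratios between 0.66 and 0.90. The last of them, Csrp1, named to complete the count, had log2 ratios of 0.61 and 0.75.

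**Figure D2:**
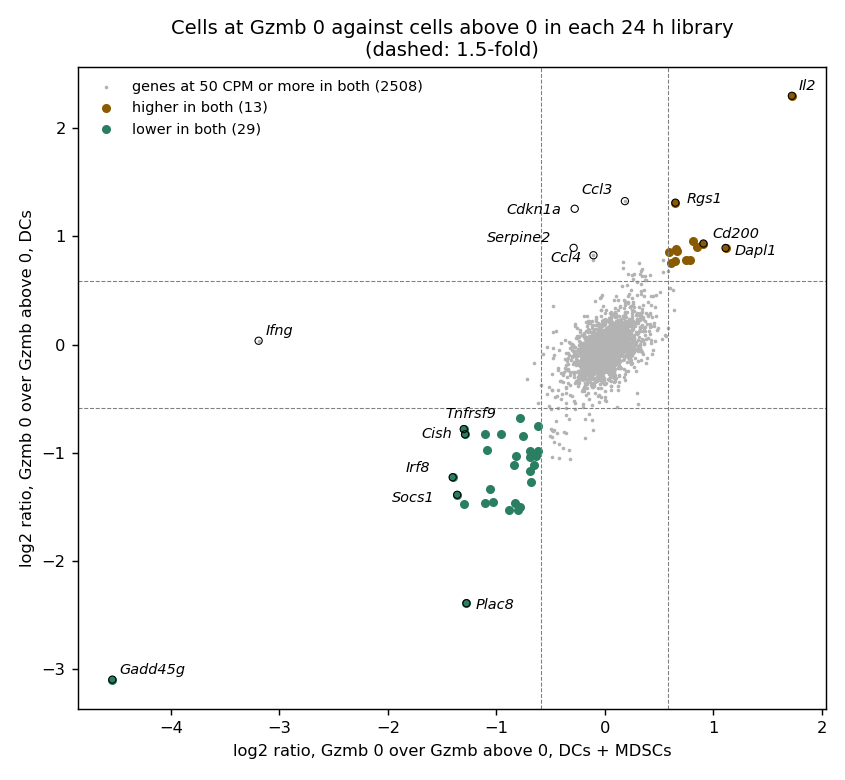
Log2 ratio of cells at Gzmb 0 over cells above 0 with MDSCs (horizontal axis) and with DCs alone (vertical axis) for the 2508 genes at 50 CPM or more in both comparisons, with named genes circled and dashed lines at 1.5-fold. Il2 lies at the upper right (1.72 and 2.30), Gadd45g at the lower left (-4.54 and -3.10), and Ifng apart on the left (-3.19 and 0.04).

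Genes lower in both libraries were led by Gadd45g, a stress and cytokine response gene that promotes interferon gamma production in T cells. It was above 0 in 4 of 86 cells at Gzmb 0 with MDSCs, at 2.41 against 56.1 CPM, and in 43 of 434 cells with DCs alone, at 7.20 against 61.6 CPM. Irf8, a transcription factor induced in CD8+ T cells during effector differentiation, stood at 247 against 652 CPM with MDSCs and 248 against 580 CPM with DCs alone. The Irf8 level of cells at Gzmb 0 was thus nearly the same in the 2 libraries. Plac8 had log2 ratios of -1.28 with MDSCs and -2.39 with DCs alone, and Gimap4, a GTPase of lymphocytes, of -0.88 and -1.53.

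Il2ra, Il2rb and some of the genes that respond to IL-2 were lower in cells at Gzmb 0, where Il2 was higher. Il2ra, the high-affinity alpha chain, was at 108 against 185 CPM with MDSCs and 117 against 188 with DCs alone, and Il2rb, the signalling beta chain, at 46.4 against 81.9 and 46.1 against 93.9 CPM. Socs1, a feedback inhibitor of cytokine signalling, was at 41.6 against 107 CPM with MDSCs, and its log2 ratios were -1.36 with MDSCs and -1.39 with DCs alone. Bcl2, the survival factor, was at 59.7 against 125 and 51.5 against 130 CPM. Named after their values were seen, Cish, a STAT5 target that inhibits receptor signals, was at 48.8 against 119 and 76.9 against 137 CPM, and the kinase genes Pim1 and Pim2 had log2 ratios of -0.96 and -0.62 with MDSCs and -0.82 and -0.75 with DCs alone. Lta, lymphotoxin alpha, also named after its values were seen, was at 171 against 366 CPM with MDSCs and 142 against 251 with DCs alone. Of 21 measured genes in the list of IL-2 and STAT5 responsive genes, 10 were lower and 1 higher with MDSCs (median log2 ratio -0.21). With DCs alone 10 of 22 were lower and 3 higher (median -0.17). Over all genes at 10 CPM or more, 8.26% were past 1.5-fold with MDSCs, 1.81% lower and 6.45% higher (median 0.09), and 5.28% with DCs alone, 2.49% lower and 2.8% higher (median 0.04). Tnfrsf4, Ptger2 and Xcl1, a costimulatory receptor, a prostaglandin receptor and a chemokine, were the members higher with DCs alone, and are named here after their values were seen.

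Interferon response genes were lower or within 1.5-fold in cells at Gzmb 0 in both libraries. Of 18 measured members 9 were lower and 0 higher with MDSCs (median log2 ratio -0.50), and of 19 members 16 were lower and 0 higher with DCs alone (median -1.35). Of all genes at 10 CPM or more, 1.81% were lower and 6.45% higher with MDSCs, and 2.49% and 2.8% with DCs alone. Igtp, an interferon-inducible GTPase, was at 57.9 against 125 CPM with MDSCs and 60.5 against 167 with DCs alone, and Ifi47, another, at 42.2 against 73.3 and 39.6 against 114. Ifi27l2a had log2 ratios of -1.03 and -1.46, and Zbp1, a nucleic acid sensor, of -0.87 and -1.80. In cells above 0 the summed list was at 1861 CPM with MDSCs and 2390 with DCs alone. In cells at Gzmb 0 the sums were 1228 CPM with MDSCs and 1080 with DCs alone. Ly6a, the surface antigen Sca-1, and Thy1, the T cell surface antigen Thy-1, both named after their values were seen, were lower too (Ly6a at 438 against 700 and 299 against 723 CPM, Thy1 at 367 against 651 and 212 against 584). Genes of class I MHC and peptide loading were mostly within 1.5-fold, with 3 of 19 lower with MDSCs and 4 of 19 with DCs alone. Tapbp, the loading chaperone tapasin, was lower in both, at 39.2 against 60.9 and 46.8 against 95.3 CPM.

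Receptors, ligands and transcription factors of effector cells differed in both directions. Tnfrsf9, the costimulatory receptor 4-1BB, was at 68.7 against 169 CPM with MDSCs and 140 against 240 with DCs alone, and Icos, another costimulatory receptor, at 7.84 against 32.1 and 18.9 against 52.6. The ligand genes Cd70 and Tnfsf11 were higher: Cd70, the ligand of CD27, at 27.7 against 11.5 and 30.8 against 8.94 CPM, and Tnfsf11, which encodes RANKL, at 45.2 against 18.4 and 44.8 against 20.7. Eomes, a T-box factor of effector and memory cells, was at 6.63 against 31.8 CPM with MDSCs and 6.02 against 35.6 with DCs alone. Batf3, an AP-1 factor, was at 15.1 against 64.3 and 6.85 against 42.5 CPM. Tbx21, which encodes the related T-box factor T-bet, stood at 45.2 against 50.1 and 30.0 against 44.0 CPM, within 1.5-fold in both libraries. Of the list of effector and memory transcription factors, 5 of 21 were higher and 4 lower with MDSCs and 3 of 20 higher and 4 lower with DCs alone. Beside these, 6.45% of all genes at 10 CPM or more were higher and 1.81% lower with MDSCs, and 2.8% and 2.49% with DCs alone.

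Genes of early activation differed in both directions, and genes of growth and metabolism were mostly within 1.5-fold. Of 25 early activation genes, 4 were higher and 5 lower with MDSCs (median log2 ratio -0.02), and 5 were higher and 4 lower with DCs alone (median 0.13). For this and the other lists here, all genes at 10 CPM or more were higher in 6.45% and lower in 1.81% with MDSCs. With DCs alone those shares were 2.8% and 2.49%. Irf4, a factor induced by T cell receptor signals, had log2 ratios of 0.01 with MDSCs and 0.13 with DCs alone, and Nr4a1, an immediate early receptor response gene, of 0.27 and 0.19. Myc, the growth regulator, was at 102 against 153 CPM with MDSCs and 128 against 165 with DCs alone. With MDSCs the Myc log2 ratio (-0.58) lay at the edge of 1.5-fold and passed it under 4 alternatives (-0.59 to -0.70). Cd69 had log2 ratios of -0.45 and 0.13, and Cd44 of 0.22 and 0.47. Ldha, lactate dehydrogenase, was at 2668 against 2562 CPM with MDSCs and 2082 against 2016 with DCs alone. None of the 47 ribosome biogenesis and MYC target genes, the 47 oxidative phosphorylation genes, the 31 chaperone genes and the 25 amino acid transporter and tRNA synthetase genes was past 1.5-fold in either library. Genes of naive and quiescent T cells were no higher as a list: of 19 members 2 were higher and 3 lower with MDSCs, and of 20 members 2 were higher and 5 lower with DCs alone. Tcf7, a transcription factor of naive and memory T cells, was within 1.5-fold at log2 ratios of 0.24 and 0.18. Vim, vimentin, had log2 ratios of -2.03 and -2.11.

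Genes that restrain T cells, as inhibitory receptors or as feedback on receptor signalling, were more often higher than lower in cells at Gzmb 0 with DCs alone. Among all genes at 10 CPM or more, 6.45% were higher and 1.81% lower with MDSCs, and 2.8% higher and 2.49% lower with DCs alone. Inhibitory receptor genes were higher in 3 of 7 with MDSCs and 5 of 7 with DCs alone, with 0 lower (medians 0.38 and 0.64). Against the low Gzmb tertile of cells above 0, their median with DCs alone was 0.28. Btla, an inhibitory receptor of lymphocytes, was at 23.5 against 9.40 CPM with MDSCs and 30.3 against 13.5 with DCs alone, and Pdcd1, which encodes PD-1, at 17.5 against 11.2 and 19.7 against 10.4. Of the feedback inhibitors 4 of 23 were higher and 4 lower with MDSCs (median 0.16), and 10 of 24 were higher and 3 lower with DCs alone (median 0.46). Dusp4, a phosphatase that acts on MAP kinases, was at 29.5 against 11.5 CPM and 38.4 against 17.3 CPM.

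Granule genes other than Gzmb were mostly within 1.5-fold. Of 14 members measured with Gzmb left out, 2 were lower and 0 higher with MDSCs (median log2 ratio 0.07). With DCs alone 2 were lower and 1 higher (median -0.05). The shares of all genes lower at 10 CPM or more were 1.81% with MDSCs and 2.49% with DCs alone, and the shares higher 6.45% and 2.8%. Srgn, serglycin, the proteoglycan that packs granule proteases, was at 752 against 657 CPM with MDSCs and 809 against 617 with DCs alone, and Nkg7, a granule membrane protein, at 300 against 447 and 566 against 600. With MDSCs the Nkg7 log2 ratio (-0.57) lay at the edge of 1.5-fold. It passed the edge with equal weight per cell (-0.82) and in the table of all time points (-0.79). Ctsw, cathepsin W, was lower, at 7.23 against 21.6 and 14.6 against 36.1 CPM. Gzma, granzyme A, was at 2.41 against 19.7 CPM with MDSCs and 0.827 against 30.6 with DCs alone, but it was above 0 in at most 4.26% of the cells of any class, and against the lowest tertile of cells above 0 its ratio with MDSCs turned positive (0.82). Perforin (Prf1) was under 1 CPM in every class, at 0 and 0.443 CPM with MDSCs and at 0.236 and 0.417 with DCs alone, so no fold is given.

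**Figure D3:**
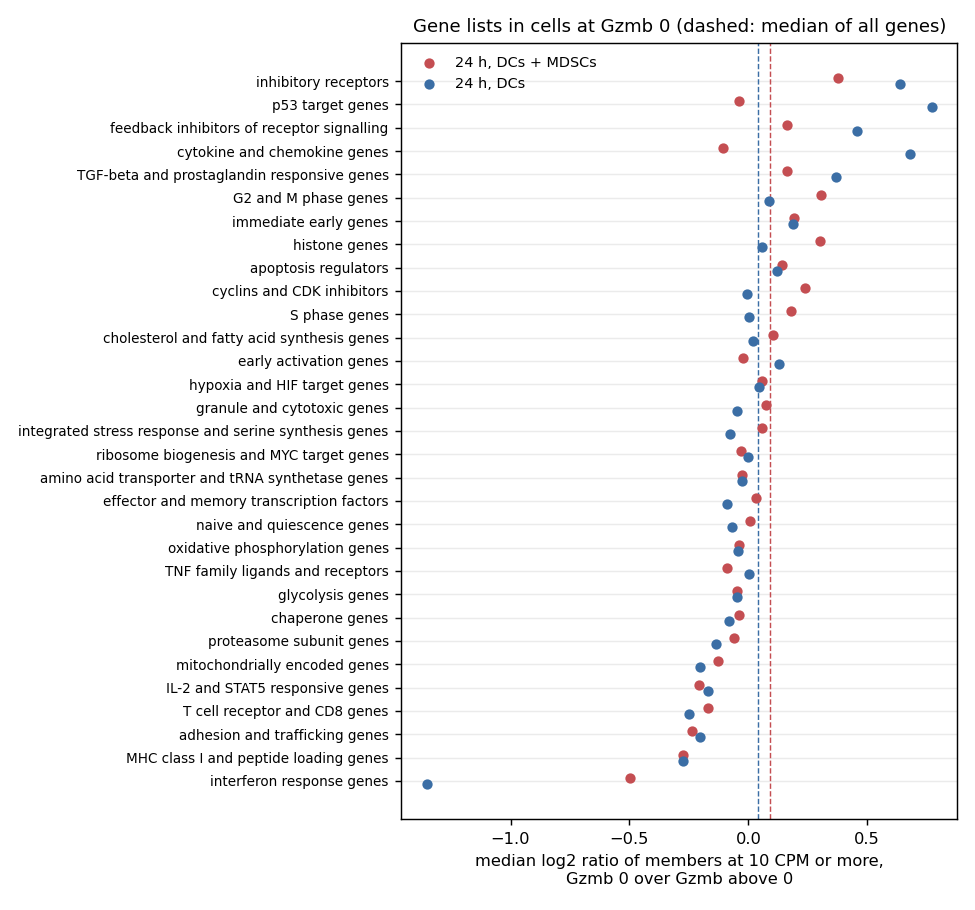
Median log2 ratio of cells at Gzmb 0 over cells above 0 (horizontal axis) for the members of 31 gene lists at 10 CPM or more, red for DCs with MDSCs and blue for DCs alone, with dashed lines at the median of all genes (0.09 and 0.04). Of the lists drawn, interferon response genes lie lowest in both libraries (-0.50 and -1.35), and p53 targets and cytokine genes lie high with DCs alone (0.77 and 0.68) but not with MDSCs (-0.04 and -0.10).

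Several genes differed between the classes in 1 library and not in the other. Ifng, interferon gamma, was at 29.5 against 270 CPM with MDSCs (log2 ratio -3.19) but at 115 against 112 CPM with DCs alone (0.04). The share of cells with Ifng above 0 was lower at Gzmb 0 in both, 11.6% against 29.2% with MDSCs and 9.22% against 18.3% with DCs alone. The 5 highest cells held 83.8% of the Ifng counts of the cells at Gzmb 0 with DCs alone, the highest of them with 638 adjusted counts, and with equal weight per cell the ratio there was -1.16. Against the low Gzmb tertile of cells above 0, the Ifng log2 ratio with DCs alone was 1.45. The chemokine genes Ccl3 and Ccl4, whose products attract other leukocytes, were higher at Gzmb 0 with DCs alone (558 against 223 and 1587 against 895 CPM), and were at 433 against 381 and 946 against 1017 CPM with MDSCs. Tnf was at 69.9 against 62.4 CPM with MDSCs and 74.4 against 45.5 with DCs alone. Its log2 ratio with DCs alone (0.71) fell within 1.5-fold under several alternatives (0.09 to 0.52), among them equal weight per cell (0.38). Klf2, a quiescence factor, was lower with DCs alone (8.27 against 23.7 CPM) and at 10.9 against 8.42 with MDSCs. Klf2 was unstable at these levels: without marker-bearing cells its log2 ratio with MDSCs was -1.77 in place of 0.37, and with DCs alone it was 0.021 within tertiles of the cell cycle sum of 20 or more cells. Of the cytokine and chemokine genes, 1 of 11 was higher and 5 were lower with MDSCs, and 7 of 13 were higher and 3 lower with DCs alone. All genes at 10 CPM or more were higher in 6.45% and lower in 1.81% with MDSCs, and in 2.8% and 2.49% with DCs alone. The cytokine list median with DCs alone (0.68) fell within 1.5-fold under several alternatives (0.09 to 0.52). Ccl4 also did so against the low Gzmb tertile of cells above 0 (log2 ratio 0.52).

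Several targets of p53 were higher at Gzmb 0 with DCs alone, where 8 of 15 members were higher and 0 lower (median log2 ratio 0.77), while with MDSCs 0 of 12 were past 1.5-fold (median -0.04). Among all genes at 10 CPM or more, 2.8% were higher and 2.49% lower with DCs alone, and 8.26% were past 1.5-fold with MDSCs. Cdkn1a, the cell cycle inhibitor p21, was at 22.3 against 27.0 CPM with MDSCs and at 136 against 56.8 with DCs alone. Phlda3, a p53-induced inhibitor of AKT, was at 8.44 against 7.56 and 63.7 against 25.9 CPM, and Serpine2, a protease inhibitor that is not on the p53 list, at 15.1 against 18.4 and 191 against 103. Against the low Gzmb tertile of cells above 0, the p53 median with DCs alone was 0.33. The log2 ratios of Cdkn1a and Serpine2 were then 0.54 and 0.23, within 1.5-fold. The excess with DCs alone was not spread evenly over the cells: the summed list reached 52 adjusted counts at the 95th percentile of cells at Gzmb 0 against 35.65 in cells above 0, with medians of 19 and 15. Cells at Gzmb 0 with DCs alone were also divided by tertiles of the cell cycle sum (207, 123 and 104 cells, from lowest to highest). Over these, Cdkn1a was at 221, 54.4 and 63.8 CPM and Serpine2 at 336, 74.7 and 43.9 CPM. Il2 followed the same order in these cells, at 2541, 799 and 562 CPM. With MDSCs the same tertiles held 7, 29 and 50 cells at Gzmb 0, with Il2 at 1022, 1165 and 931 CPM. A comparison within the tertiles that held 20 or more cells in every class leaves out the lowest tertile in both libraries. With DCs alone this drops 207 of the 434 cells at Gzmb 0. There the median of p53 target genes with DCs alone was 0.45, and the log2 ratio of Cdkn1a was 0.78. Serpine2 had a log2 ratio of 0.20, against 0.51 with all tertiles kept. The median of cytokine and chemokine genes was 0.09, against 0.46 with all tertiles kept, in place of 0.68.

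Levels of Il2, Irf8 and Gadd45g ran in order over ranges of the Gzmb count, with cells at Gzmb 0 at the end. Cells above 0 were divided into tertiles by their Gzmb count (1 to 11, 12 to 44 and 45 to 285 with MDSCs, 1 to 6, 7 to 33 and 34 to 510 with DCs alone). In cells at 0 and in the low, middle and high tertile, Il2 was at 1016, 530, 256 and 129 CPM with MDSCs and at 1566, 710, 181 and 43.0 CPM with DCs alone. Irf8 ran the other way, at 247, 409, 664 and 890 CPM with MDSCs and 248, 447, 576 and 725 with DCs alone, and Gadd45g at 2.41, 13.1, 49.5 and 107 CPM and 7.20, 25.7, 48.4 and 113 CPM. At the edge of the rule, at adjusted Gzmb counts of 0, 1 and 2, Il2 was at 1016, 825 and 879 CPM and Irf8 at 247, 288 and 365 CPM with MDSCs. With DCs alone Il2 was at 1566, 720 and 1126 CPM and Irf8 at 248, 351 and 394 CPM over the same counts. The Irf8 levels thus climbed over these counts in both libraries, while Il2 was highest at 0 and lowest at 1.

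**Figure D4:**
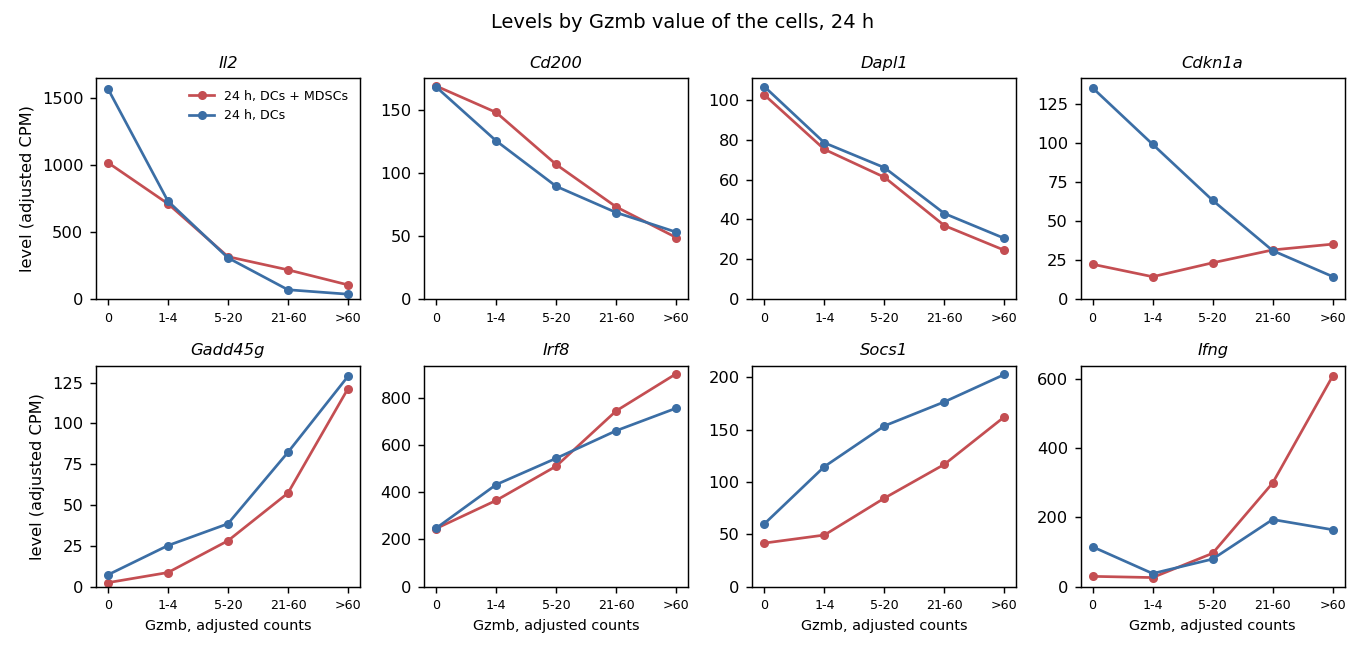
Level of 8 genes (vertical axes, adjusted CPM, from 0) in cells of rising adjusted Gzmb count (horizontal axes, 0 to above 60), red for DCs with MDSCs and blue for DCs alone. Il2, Cd200 and Dapl1 decline and Gadd45g, Irf8 and Socs1 climb with Gzmb in both libraries, Cdkn1a declines with DCs alone (from 136 CPM at 0), and Ifng climbs with MDSCs from the range of 1 to 4 upward (26.1, 96.2, 299 and 608 CPM).

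Set against the low Gzmb tertile in place of all cells above 0, 16 genes were past 1.5-fold at Gzmb 0 with MDSCs and 45 with DCs alone, and 1 of the 13 and 7 of the 29 genes stayed past it in both libraries, with the same sign in all 42. The tertiles are cut on the Gzmb values that define the classes, so these levels are a description.

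Cells at Gzmb 0 were mostly cells with Il2 and without Ifng. With MDSCs 70.9% of them had Il2 alone (61 of 86 cells) and 4.65% had both, against 34.1% and 14.3% of cells above 0. With DCs alone 69.1% had Il2 alone (300 of 434) and 7.14% had both, against 39.8% and 8.42% of cells above 0. Neither transcript was found in 17.4% of cells at Gzmb 0 against 36.8% of the others with MDSCs, and in 21.7% against 41.9% with DCs alone.

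Among cells at Gzmb 0 themselves, those with Il2 above 0 and those without differed at least 1.5-fold in Ccl4 and Tnf, but not in Irf8 or Cish. Ccl4 was at 1168 CPM in the 65 cells with Il2 against 255 CPM in the 21 cells without it with MDSCs, and at 1935 CPM in 331 cells against 468 CPM in 103 cells with DCs alone. Tnf, tumour necrosis factor, was at 81.3 against 34.7 and 91.2 against 20.4 CPM. Irf8 was at 232 against 292 CPM with MDSCs and 234 against 293 with DCs alone, and Cish at 47.8 against 52.0 and 77.8 against 74.0. Both groups of cells at Gzmb 0 were thus below the 652 and 580 CPM of Irf8 in cells above 0.

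Between the libraries, more genes were past 1.5-fold in cells at Gzmb 0 than in cells above 0. In cells at Gzmb 0, 174 of 2781 genes were past 1.5-fold between MDSCs with DCs and DCs alone (6.26%), 133 higher (4.78%) and 41 lower (1.47%) with MDSCs. In cells above 0, 62 of 2571 genes were (2.41%), 38 higher (1.48%) and 24 lower (0.933%). The first comparison rests on 86 cells with MDSCs and the second on 2161, and the part of this difference in the counts was not tested. The share of higher calls depended on scaling: in cells at Gzmb 0 it was 76.4%, but 56.6% with ribosomal protein and mitochondrial genes left out of the total and 45.2% with ratios centred on their median, and in cells above 0 it was 61.3%, 46.8% and 34.4%. The median of all genes at 50 CPM or more was 0.15 in cells at Gzmb 0 and 0.10 in cells above 0.

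Many G2 and M phase genes were higher with MDSCs in both classes. In cells at Gzmb 0, Hist1h2ap, a replication-dependent histone gene, was at 160 CPM with MDSCs and 32.0 with DCs alone, and Hist1h1b, a linker histone gene, at 59.1 and 15.7. Mki67, the proliferation marker Ki-67, was at 71.1 and 23.6 CPM, and Ube2c, a mitotic ubiquitin-conjugating enzyme, at 89.8 and 34.5. Of 49 measured G2 and M phase genes, 33 were higher and 1 lower in cells at Gzmb 0 (median log2 ratio 0.83), against 27 higher and 1 lower of 47 in cells above 0 (median 0.62). Over all genes at 10 CPM or more, 11.2% were past 1.5-fold in cells at Gzmb 0, 7.39% higher and 3.84% lower, and 3.29% in cells above 0, 1.59% higher and 1.7% lower. S phase genes were higher in 14 of 51 and in 3 of 51. Eif4ebp1, a translation inhibitor of the integrated stress response, was at 376 CPM with MDSCs and 129 CPM with DCs alone in cells at Gzmb 0 and at 361 and 148 CPM in cells above 0.

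Lower with MDSCs in cells at Gzmb 0 were the p53 targets Cdkn1a (log2 ratio -2.60) and Phlda3 (-2.91), and also Serpine2 (-3.66). In cells above 0 their log2 ratios were -1.07, -1.78 and -2.48. Of the p53 target genes, 6 of 15 were lower in cells at Gzmb 0 (median -0.52) and 4 of 13 in cells above 0 (median -0.08). In both classes 0 were higher. The shares of all genes lower at 10 CPM or more were 3.84% and 1.7%. S100a11, a calcium-binding protein, was at 31.3 CPM with MDSCs and 120 with DCs alone. Ifng was lower with MDSCs in cells at Gzmb 0 (-1.96) and higher with MDSCs in cells above 0 (1.27). The first of these Ifng values rested on few cells, as 10 cells at Gzmb 0 with MDSCs and 40 with DCs alone had it above 0, and with equal weight per cell it was -0.22. Plac8 was higher with MDSCs in cells at Gzmb 0 (76.0 against 37.2 CPM) and at 184 against 195 CPM in cells above 0.

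**Figure D5:**
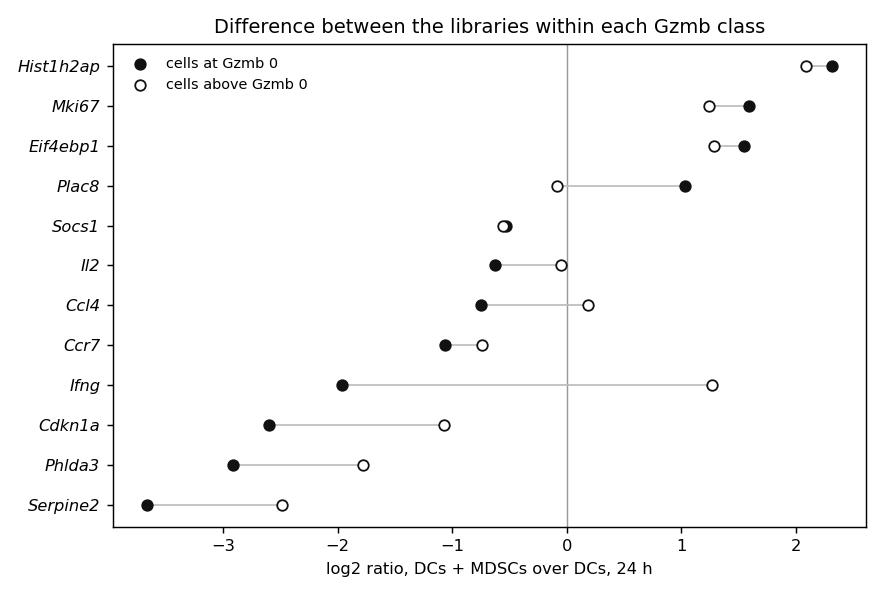
Log2 ratio of the library with DCs and MDSCs over that with DCs alone (horizontal axis) for 12 genes, filled points for cells at Gzmb 0 and open points for cells above 0. Ifng lies on opposite sides of 0 (-1.96 and 1.27), and Plac8 is displaced to the right in cells at Gzmb 0 (1.03 and -0.09). The p53 targets Cdkn1a and Phlda3 lie far left in both.

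Cells at Gzmb 0 held a large share of the Il2 transcript with DCs alone and a small one with MDSCs. Over all cells Il2 was at 335 CPM with MDSCs and 670 with DCs alone. Within cells at Gzmb 0 the log2 ratio was -0.62, and within cells above 0 it was -0.05. Cells at Gzmb 0 held 11.9% of the Il2 counts with MDSCs and 65.9% with DCs alone. With the class levels of the library with MDSCs weighted by the class shares of the other, a setting chosen after seeing the data, Il2 was at 504 CPM with MDSCs and 665 with DCs alone (-0.40). The Il2 log2 ratio within cells at Gzmb 0 was -0.01 within tertiles of the cell cycle sum and 0.64 without the lowest tertile. That tertile held 7 of the 86 cells at Gzmb 0 with MDSCs, but 207 of the 434 with DCs alone. Without it the Il2 log2 ratio in cells above 0 was 0.87. The part of cell cycle in the Il2 ratio was not tested. For Gzmb itself the log2 ratio was 0.78 over all cells and 0.36 among cells above 0.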

How the data were processed

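Per the labels' protocols, sorted cells were sequenced on the 10x Genomics platform, and the submitters' processing notes name Cell Ranger 2.0.1, Seurat and build mm10. In the deposited 24 h table (12631 genes) each entry is a natural log, taken after adding 1, of an adjusted whole number, and 0 entries lay farther than 1e-06 from such a number. The adjustment itself: not given in the sources used here. Because totals per cell were nearly constant they are not molecule counts, depth is unknown, and no count model, thinning or doublet caller was applied. The library of each cell came from the deposited cell annotation.

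Adjusted counts (the exponential of the value, minus 1) were summed per gene and class and divided by the class total to give CPM. Gzmb was left out of all counts of genes. Intervals of shares are exact (Clopper-Pearson) and cover counting error only. Members, 38 gene lists and naming rules were chosen with earlier results of these data known. Named genes were the 10 with the largest mean ratio per direction past 1.5-fold in both libraries, up to 2 members per list and direction at 20 CPM or more, the 5 with the largest ratio between libraries in cells at Gzmb 0 per direction, those with the largest difference between the libraries' ratios, and 43 fixed genes, and 2 genes that these rules name are not reported here. Recovery of known folds by the call rule was checked on simulated data. Gene names are those of the file. Python 3.11.15, numpy 2.4.6 and pandas 2.3.3 were used.

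Alternatives were equal weight per cell, a total without ribosomal protein and mitochondrial genes, ratios centred on their median, minimum levels of 10 and 200 CPM, 2-fold, the low Gzmb tertile as the comparison class, cells with 2 or more markers of another type left out, comparison within tertiles of genes above 0 or of the cell cycle sum, and the table of all time points. Tertiles restricted to those with 20 or more cells in each class, ranges of fixed Gzmb count and weighting by class shares were added after seeing the data. The restriction left out the lowest tertile in both libraries. For the cell cycle sum it held 7 cells at Gzmb 0 with MDSCs and 207 with DCs alone, and for genes above 0 it held 6 and 84.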

Additional observations from a re-analysis of the deposited data

How the results depend on the processing

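No paired analysis was possible because each group is 1 library. The 63 genes past 1.5-fold at Gzmb 0 with MDSCs became 16 against the low Gzmb tertile, 126 without marker-bearing cells, 132 within tertiles of genes above 0 (34 without the tertile that held 6 cells), 99 within tertiles of the cell cycle sum (44 without the tertile that held 7), 544 at 10 CPM, 9 at 200 CPM and 17 at 2-fold. The 106 genes with DCs alone became 45, 342, 30 and 31 against the low tertile, at 10 CPM, at 200 CPM and at 2-fold. Between the libraries, the 174 genes in cells at Gzmb 0 became 296 without marker-bearing cells, 307 within tertiles of genes above 0 (151 without the thin tertile), 137 within tertiles of the cell cycle sum (48 without it), 751 at 10 CPM, 41 at 200 CPM and 33 at 2-fold. The 62 genes in cells above 0 became 128 with the low tertile, 24 within tertiles of the cell cycle sum (27 without the thin tertile), 207 at 10 CPM, 14 at 200 CPM and 17 at 2-fold. The cause was not tested, beyond the fewer or more genes or cells that a setting leaves. With MDSCs, equal weight per cell gave 55 higher and 32 lower genes at Gzmb 0, a share of higher calls of 63.2% in place of 46.0%.

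The share of cells at Gzmb 0 was 7.79% and 35.7% (with MDSCs and with DCs alone) in the table of all time points and 8.32% and 36.4% for 1 or less. By tertiles of genes above 0 it was 0.775%, 3.45% and 8.06% with MDSCs and 16.9%, 33.9% and 32.1% with DCs alone.

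Of the 13 higher and 29 lower genes of both libraries, 13 and 24 stayed past 1.5-fold in both with equal weight per cell, 9 and 28 in the table of all time points, 3 and 25 within tertiles of genes above 0 and 7 and 18 without the thin tertile. Within tertiles of the cell cycle sum 5 and 27 stayed, and 8 and 24 without the thin tertile. Values past 1.5-fold turned in sign for Gzma at Gzmb 0 with MDSCs (0.82 against the low tertile), for Prf1 and Gzmc with DCs alone (0.81 and 0.44 against the low tertile), and in tertiles of 20 or more cells for Ms4a4b with MDSCs (0.12, genes above 0) and Klf2 with DCs alone (0.021, cell cycle sum). Between the libraries, tertiles of the cell cycle sum with 20 or more cells turned Il2 (0.64) and Ifng (0.57) in cells at Gzmb 0, and tertiles of genes above 0 with 20 or more cells turned S1pr1 (0.34) in cells above 0. Gzma in cells above 0 turned to 0.45 with equal weight, 0.51 without marker-bearing cells, 0.36 and 1.23 within tertiles of genes above 0 and of the cell cycle sum, and 1.03 and 1.85 without the thin tertiles. Ratios within 1.5-fold also turned and passed it: at Gzmb 0, Klf2 with MDSCs (-1.77, without marker-bearing cells) and, with DCs alone, Mki67 (-1.05) and Ube2c (-0.60) within tertiles of genes above 0, Ube2c in the table of all time points (-0.60), S1pr1 against the low tertile (-0.64) and Ifng under 5 alternatives (-1.16 to -2.55). Between the libraries, so did Klf2 (-1.14, without marker-bearing cells) and Lgals3 (0.66 and 0.97, tertiles of the cell cycle sum) at Gzmb 0, and Il2 (0.87, tertiles of the cell cycle sum of 20 or more cells) and Gzmc (-0.63, without marker-bearing cells) above 0. The Ifng ratio at Gzmb 0 with DCs alone also passed 1.5-fold without a turn, against the low tertile (1.45). The cause was not tested.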
